A study of Mus musculus with 3 samples.

Results

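The 6 STAT genes Stat2, Stat3, Stat4, Stat5a, Stat5b and Stat6 were compared for H3K36me3, trimethylated lysine 36 of histone H3, between regulatory T (Treg) cells of spleen and of large intestine. The genes were taken by name, and each was given the peaks whose midpoint fell between its annotated start and end (GENCODE M21, positions in mm10). This yielded 140 peaks of 120910 in the merged peak set, and 6 genes of 11946 with at least 1 peak in the gene body. All 6 genes passed the filter of at least 20 RPKM over both libraries, as did 10886 genes in all. RPKM here is read coverage scaled per kilobase and to sequencing depth, averaged over a peak.

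Treg cells (CD3+CD4+YFP+) came from adult Foxp3Cre-YFP mice on the C57BL/6 strain, in which the Foxp3 locus drives Cre and a fluorescent reporter. Each library was made from cells pooled over 7 female and 7 male mice at steady state, so that animals cannot be told apart. There was 1 ChIP-seq library of spleen and 1 of large intestine, with no replicates: every difference below is between these libraries, and intervals cover counting error only. Another library, input chromatin of splenic Treg cells, was not analysed here.

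STAT proteins are latent transcription factors that Janus kinases (JAKs) phosphorylate at cytokine receptors, after which they pair and enter the nucleus. In Treg cells the IL-2 receptor acts through STAT5, which supports Foxp3 expression, while STAT3 acts downstream of IL-6, IL-10 and IL-21 family cytokines. H3K36me3 is laid down by Setd2 behind elongating RNA polymerase II, so it covers the bodies of transcribed genes and is usually strongest towards their 3' ends.

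The windows printed here come from the members with the highest and the lowest ratio of large intestine over spleen, Stat3 and Stat6. Each is the middle 300 bases of the strongest peak with its midpoint in an intron, taken from the GRCm38 reference on the coding strand, with protein-coding bases in capitals. The Stat3 window, chr11:100903435-100903734 on the minus strand, lies in a peak of 905 bp with 30.3 RPKM in spleen against 42.3 RPKM in large intestine. The Stat6 window, chr10:127647041-127647340 on the plus strand, lies in a peak of 1696 bp with 20.9 RPKM in spleen against 19.2 RPKM in large intestine.
Stat3: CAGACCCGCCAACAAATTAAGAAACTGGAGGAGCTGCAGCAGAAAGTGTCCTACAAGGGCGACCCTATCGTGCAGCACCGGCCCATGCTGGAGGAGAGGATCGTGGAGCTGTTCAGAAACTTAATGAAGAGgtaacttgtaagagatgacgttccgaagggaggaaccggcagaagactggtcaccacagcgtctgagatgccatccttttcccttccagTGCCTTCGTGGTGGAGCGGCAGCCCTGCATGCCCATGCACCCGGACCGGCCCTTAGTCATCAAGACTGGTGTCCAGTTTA
Stat6: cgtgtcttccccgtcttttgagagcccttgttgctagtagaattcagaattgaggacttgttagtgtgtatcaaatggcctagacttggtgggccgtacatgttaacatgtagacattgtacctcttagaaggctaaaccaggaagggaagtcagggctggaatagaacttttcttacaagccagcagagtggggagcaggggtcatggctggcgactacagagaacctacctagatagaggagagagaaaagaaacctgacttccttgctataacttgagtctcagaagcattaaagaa
The Stat3 window holds 211 coding bases on both sides of a short intron, and the Stat6 window holds none. Neither contains TTCNNNGAA, the palindrome that STAT dimers bind, read on both strands.

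From the values, the depth was 29600000 mapped reads for spleen and 38100000 for large intestine, whose values were multiplied by 0.969 so that both columns had the same total over all peaks. All 8 markers of T and Treg cells had peaks, and the list totalled 1886 RPKM in spleen against 1515 RPKM in large intestine. Its median log2 ratio (large intestine over spleen) was -0.18, with 3 counting intervals below 0 (Cd3e -0.41, Cd3g -0.28, Ikzf2 -0.55) and 1 above (Ctla4 0.59). Over all genes tested, 15.2% had an interval below 0 and 18% had one above. Foxp3 had 132.5 and 151.4 RPKM. Of 6 B cell markers, 3 had no peak (Ms4a1, Ebf1, Blnk), and the list totalled 60.2 and 51.8 RPKM, while 5 of 7 myeloid markers had none and that list totalled 29.7 and 30.4 RPKM. Of 8 intestinal epithelium markers, 6 had no peak (Krt8, Krt20, Cdh1, Cdx2, Muc2, Slc26a3), but the list totalled 29.9 RPKM in spleen against 58.0 RPKM in large intestine through Epcam and Vil1. Of the CD8 T cell markers, Cd8a had no peak and Cd8b1 had 21.1 and 9.16 RPKM. The part of other cells in the STAT values was not tested. In pooled chromatin, more cells carrying the mark and more mark per cell cannot be told apart.

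Stat3 and Stat4 carried more H3K36me3 in large intestine Treg cells than in spleen Treg cells, Stat5a and Stat5b had 1.13-fold more, with intervals that reached down to about 0, and Stat2 and Stat6 differed by less than their counting error. For each gene the peak values were added up in each library, and the log2 ratio (large intestine over spleen) was taken with 0.5 RPKM added to each sum. The median of this ratio over all 10886 genes was 0.0053, with the middle 50% between -0.20 and 0.24.

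Stat3, the factor of IL-6 and IL-10 signalling (ENSMUSG00000004040.16, chromosome 11, 100885098 to 100939540, minus strand), had 21 peaks with a sum of 245.9 RPKM in spleen against 377.2 RPKM in large intestine. Its log2 ratio was 0.62, with an approximate 95% counting interval from 0.49 to 0.74, or 1.53-fold. By the summed peaks this was the highest ratio of the 6 genes, though not after correction for GC content, and it exceeded that of 91.3% of all genes tested. All 21 peaks were higher in large intestine, with ratios from 0.33 to 1.38 and a median of 0.64. Among the 1878 genes with at least 20 peaks, every peak was higher in large intestine in 24 genes, or 1.28%.

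Stat4, which acts downstream of IL-12 (ENSMUSG00000062939.11, chromosome 1, 51987148 to 52107189, plus strand), had 64 peaks, a number exceeded by 132 genes. Their sum was 515.3 RPKM in spleen against 724.3 RPKM in large intestine, giving a ratio of 0.49 (0.36 to 0.62), or 1.41-fold. Of these peaks, 57 were higher in large intestine and 7 lower, with ratios spread from -1.28 to 1.74. The peaks were mostly short and weak: 51 were under 1 kb, and the strongest reached 15.9 RPKM in spleen. Among the 13 peaks of 1 kb or more, 12 were higher in large intestine, but their summed ratio was lower, at 0.28 (0.15 to 0.40). In the strongest peak alone, 4649 bp at the 3' end, the ratio was 0.12 (-0.13 to 0.36), so that no difference was detectable there at this depth. Of the 64 peaks, 20 also lay in the body of another annotated gene, mostly Gm28177. Peaks in no other gene body gave a ratio of 0.50.

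Stat5a and Stat5b, the paralogs that transmit IL-2 receptor signals, had nearly the same ratio. Stat5a (ENSMUSG00000004043.14, chromosome 11, 100859351 to 100885169, plus strand) held 10 peaks, which summed to 155.9 RPKM in spleen against 176.4 RPKM in large intestine, giving a log2 ratio of 0.18 (-0.018 to 0.37). Stat5b (ENSMUSG00000020919.11, chromosome 11, 100780731 to 100850724, minus strand) held 34 peaks with sums of 370.0 and 416.7 RPKM, giving 0.17 (0.020 to 0.32). The difference between these 2 ratios was 0.0071 (-0.24 to 0.25). Of the Stat5a peaks 7 of 10 were higher in large intestine, and of the Stat5b peaks 20 of 34. The Stat5b interval included 0 once peaks were weighted by length, which gave 0.033 (-0.038 to 0.10). Its strongest peak, 12809 bp long, had 27.9 RPKM in spleen against 27.6 RPKM in large intestine.

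Stat2, the interferon-specific member that works with Irf9 (ENSMUSG00000040033.16, chromosome 10, 128270559 to 128292849, plus strand), held 8 peaks, which summed to 107.2 RPKM in spleen against 104.9 RPKM in large intestine. Its log2 ratio was -0.032 (-0.26 to 0.19), with 3 of 8 peaks higher in large intestine. Its longest peak, 9100 bp, had 22.9 and 22.1 RPKM. Stat6, the factor of IL-4 and IL-13 signalling (ENSMUSG00000002147.18, chromosome 10, 127642986 to 127660957, plus strand), held 3 peaks with sums of 66.8 and 63.9 RPKM, giving -0.064 (-0.21 to 0.081). From the 5' end, its peaks had 20.9, 28.6 and 17.4 RPKM in spleen and 19.2, 26.4 and 18.3 RPKM in large intestine. Only the last of these 3 Stat6 peaks, over the 3' UTR, was higher in large intestine.

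Set in order, the neighbours Stat3 and Stat4 did not differ beyond counting error (difference 0.13, -0.051 to 0.30), while Stat4 lay above Stat5a by 0.31 (0.079 to 0.55). Stat5b and Stat2 differed by 0.20 (-0.068 to 0.47), and Stat2 and Stat6 by 0.032 (-0.23 to 0.30). The 6 genes thus held 1 step larger than counting error between neighbours, that between Stat4 and Stat5a, although Stat5b also lay above Stat6 by 0.24 (0.026 to 0.45). This step was not seen in the strongest peak of each gene alone. There Stat4 had 0.12 (-0.13 to 0.36) and Stat5a 0.15 (0.018 to 0.29). Of the 6 genes, 3 had an interval wholly above 0 (Stat3, Stat4, Stat5b), against 18% of all genes, and 0 had an interval wholly below 0, against 15.2% of all genes. None of the 6 genes was 2-fold different, which was seen in 3.43% of all genes towards large intestine and in 2.04% towards spleen.

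**Figure D1:**
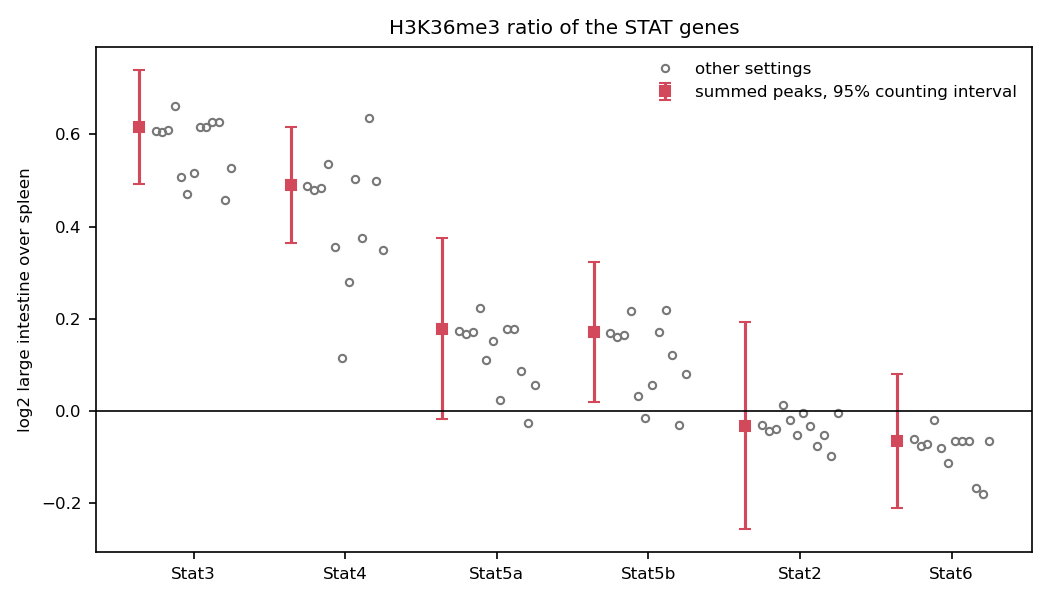
Log2 ratio of summed H3K36me3, large intestine over spleen, for the 6 STAT genes. Red squares with bars are the ratio of all peaks with its approximate 95% counting interval, grey circles the ratio under other ways of processing. Stat3 stays between 0.46 and 0.66 and Stat4 between 0.12 and 0.63, while the circles of Stat5b and Stat5a reach just below 0.

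Counted by peak, 109 of the 140 STAT peaks (77.9%) were higher in large intestine, against 49% of all peaks. Most of these belonged to Stat3 (21 of 21) and Stat4 (57 of 64). The others had 7 of 10 (Stat5a), 20 of 34 (Stat5b), 3 of 8 (Stat2) and 1 of 3 (Stat6). Among STAT peaks of 1 kb or more this was 31 of 41, against 51.4% of all peaks of that length. Here Stat3 had 10 of 10 and Stat4 12 of 13. Stat5a had 2 of 4, Stat5b 4 of 7, Stat2 2 of 4 and Stat6 1 of 3, so the excess lay in Stat3 and Stat4. Peaks of 1 gene share a library and are not replicates. Short peaks vary more: the SD of the log2 ratio was 0.88 over all peaks under 1 kb and 0.39 over longer ones. Of the STAT peaks, 99 were under 1 kb, and since each peak entered the sum with the same weight, short peaks counted as much as long ones. Weighting by length gave 0.51 for Stat3, 0.36 for Stat4, 0.11 for Stat5a, 0.033 for Stat5b, -0.019 for Stat2 and -0.080 for Stat6. The order of the 6 genes was the same, but the interval of Stat5a then lay above 0 (0.013 to 0.21) and that of Stat5b did not.

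The ratio also moved with base composition. Over all peaks its median was -0.53 in the lowest of 20 bins of GC content, at 35.1% GC, and 0.35 in the highest, at 61.0% GC. Stat4 peaks had the lowest GC content of the 6 genes, 42.4% weighted by length, against a median of 46.5% over all peaks. Stat3 stood at 47.5%, Stat5b at 48.2%, Stat2 at 48.8%, Stat6 at 50.01% and Stat5a at 50.3%. With the median of each GC bin subtracted, Stat4 moved to 0.635 (0.51 to 0.76), just above Stat3 at 0.627 (0.50 to 0.75). With length weighting as well, Stat4 had 0.50 and Stat3 0.46, so that the order of these 2 genes depended on the correction. The same step brought Stat5b to 0.12 (-0.031 to 0.27), Stat5a to 0.087 (-0.11 to 0.28) and Stat2 to -0.052 (-0.28 to 0.18). Stat6 moved to -0.17, with its interval from -0.31 to -0.020 now below 0.

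Levels per length can be compared between genes, which sums cannot. The value averaged over all bases of the gene body, with bases outside peaks taken as 0, was highest for Stat5a, at 21.2 RPKM in spleen against 23.6 RPKM in large intestine. In spleen Stat6 followed at 20.2 RPKM, then Stat2 at 15.0, Stat3 at 14.4, Stat5b at 12.4 and Stat4 at 4.17 RPKM. In large intestine the order differed: Stat3 came second at 20.4 RPKM, ahead of Stat6 at 19.0, Stat2 at 14.7, Stat5b at 12.7 and Stat4 at 5.36 RPKM. These levels, like the covered shares below, took every peak overlapping the body, cut at the gene ends. For Stat5a they include part of the peak across its junction with Stat3, which is otherwise counted for Stat3. The Stat5a level without this part was not computed. Over the bases of assigned peaks only, Stat6 was highest in spleen, at 24.9 RPKM against 24.0 for Stat5a. Stat5a was then highest in large intestine, at 25.9 RPKM against 24.2 for Stat3. With 1 library per tissue these levels have no spread over samples, so the order of close neighbours was not tested. Stat4 was the longest gene at 120.0 kb, and peaks covered 41.7% of it, while they covered 61.5% of the 70.0 kb of Stat5b. In the other members the covered share was 76.0% for Stat2, 79.3% for Stat6, 86.2% for Stat3 and 88.0% for Stat5a.

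Of the 140 STAT peaks, 126 had their midpoint in an intron, 7 in a coding exon, 4 in a UTR and 3 in another exon. In Stat3 all 21 midpoints were intronic, and in Stat5b 33 of 34. The signal was weak near most starts and stronger downstream. The gene body was cut into 3 equal lengths, and each whole peak was put by its midpoint in the first, middle or last part. A long peak can thus reach beyond its part. In Stat3 the mean over the bases of these peaks was 7.94, 15.7 and 22.7 RPKM in spleen. In large intestine it was 13.04, 22.3 and 31.4 RPKM. In Stat5b this mean was 11.3, 8.50 and 26.7 RPKM in spleen and 10.1, 11.8 and 26.7 RPKM in large intestine. Both genes thus had their highest level in the last part, at the 3' end, in each tissue. The compact genes Stat2 and Stat6 had theirs in the middle part, at 22.9 and 28.6 RPKM in spleen and 22.1 and 26.4 RPKM in large intestine. In each of these genes that part held 1 peak, of 9100 bp in Stat2 and 9719 bp in Stat6, which reached into other parts. In Stat4 the midpoint of the first peak lay 25.7 kb, or 21.4% of the gene length, from the outermost start. The RefSeq promoter of another Stat4 start, further into the gene, was 3966 bp from that peak.

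**Figure D2:**
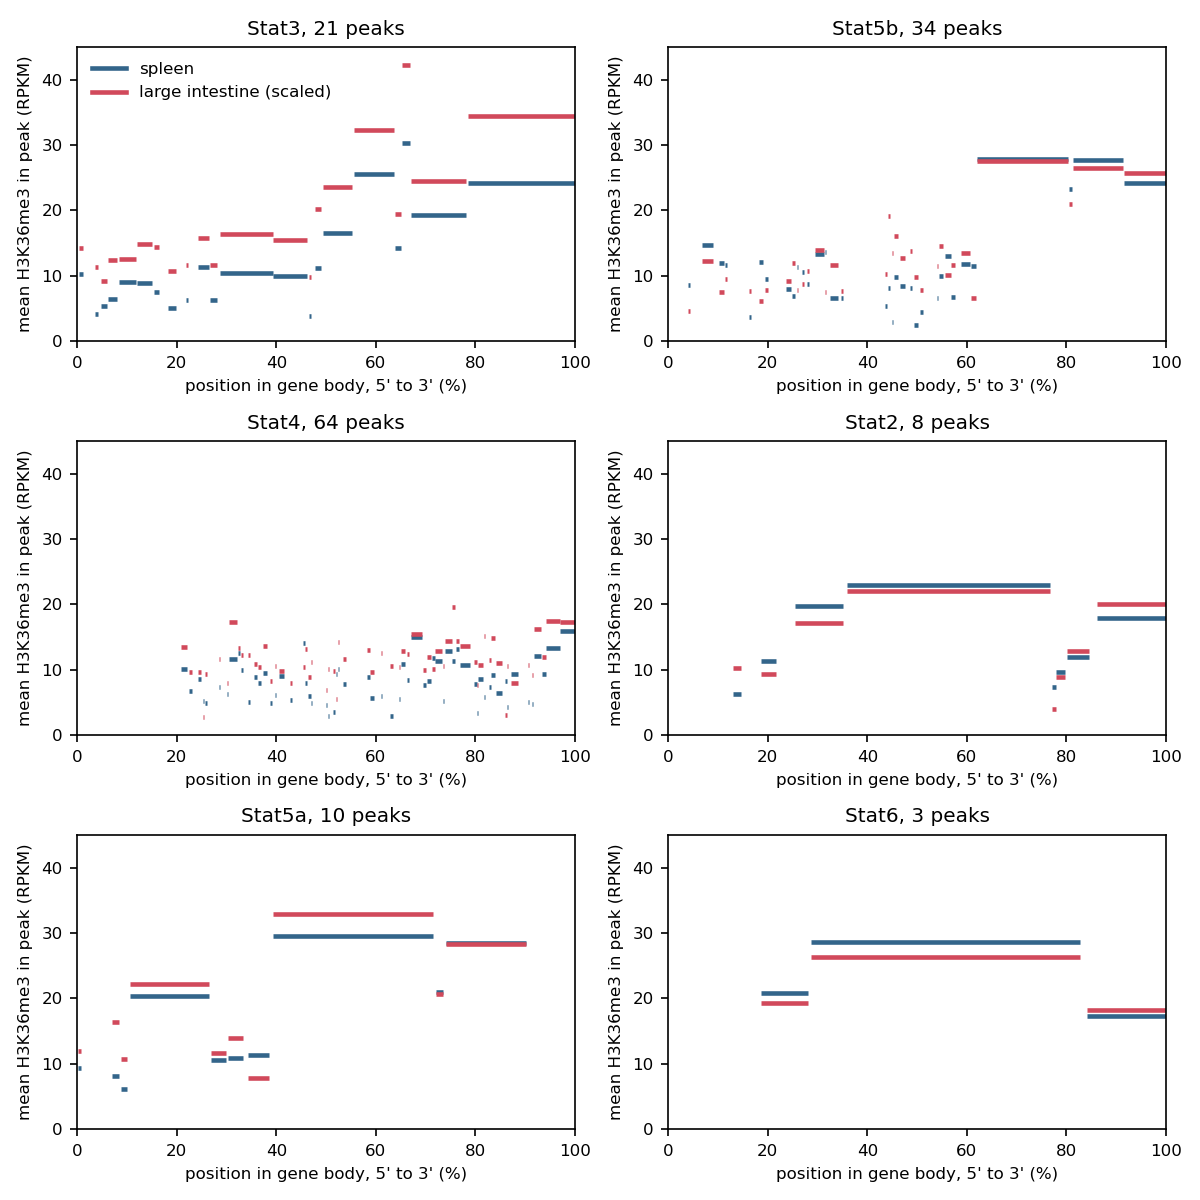
Mean H3K36me3 per peak (RPKM) against position in the gene body from 5' to 3' (percent of gene length) for the 6 STAT genes. Each horizontal line is 1 peak drawn over its own length, blue for spleen and red for large intestine after scaling. Every red line of Stat3 lies above its blue partner, those of Stat2 and Stat6 lie close together, and Stat4 is made of 64 mostly short peaks that begin at 21.4% of the gene.

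The tissue ratio was not even along the genes. In Stat3 the log2 ratio of summed peaks was 0.78 in the first part, 0.56 in the middle and 0.43 in the last, and every part was higher in large intestine. In Stat4 these ratios were 0.50, 0.59 and 0.41. The parts of the STAT5 genes had ratios further apart. In Stat5a the first part gave 0.40, with 6 of 6 peaks higher in large intestine, and the rest gave -0.0057 and -0.012. In Stat5b the middle part alone was higher in large intestine, at 0.63 with 14 of 16 peaks, with 122.5 RPKM in spleen against 190.4 RPKM. These 16 peaks were between 200 and 1362 bp long. The first part of Stat5b gave -0.20, with 5 of 14 peaks higher in large intestine, and the last part, which holds its long peaks, gave -0.030 with 1 of 4. The largest single ratio of the 140 peaks, 2.02, belonged to a Stat5b peak of 218 bp in this middle part (chr11:100819108-100819325), with 2.93 RPKM in spleen against 13.4 RPKM in large intestine.

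Stat5b, Stat5a and Stat3 lie side by side on chromosome 11 within 158.8 kb. Stat5b and Stat5a point away from each other, with their starts 8626 bp apart. Stat5a and Stat3 run towards each other, and their annotated 3' ends overlap by 72 bp. The peak across this junction (chr11:100882796-100896763, 13968 bp) had 24.2 RPKM in spleen against 34.4 RPKM in large intestine. By its midpoint it belongs to Stat3, and without it the Stat3 ratio was 0.63. The long Stat5a peak just before it (chr11:100878499-100882653) had 28.5 RPKM in spleen against 28.3 RPKM in large intestine. These 2 peaks meet inside the Stat5a body and had ratios of 0.50 and -0.0073. The difference between the Stat3 and Stat5a ratios over all their peaks was 0.44 (0.21 to 0.67).

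Within 100 kb of the locus, 7 other protein-coding genes had a peak, and the interval of 2 of them lay off 0. Dhx58, a cytosolic RNA sensor regulator, had 63.4 RPKM in spleen against 41.3 RPKM in large intestine and a ratio of -0.61 (-0.97 to -0.25). Nearer to Stat5b, Kat2a had -0.15 (-0.32 to 0.032), Hspb9 0.22 (-0.56 to 0.99) and Rab5c -0.24 (-0.49 to 0.0055). Ghdc, the closest protein-coding gene with a peak on this side, had 0.66 (-0.33 to 1.65). On the other side, Atp6v0a1, a subunit of the vacuolar proton pump, had 226.2 and 369.3 RPKM and a ratio of 0.71 (0.48 to 0.93), with 28 of 32 peaks higher in large intestine. Cavin1, between it and Stat3, had 2 weak peaks and a ratio of 0.87 (-0.19 to 1.93).

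**Figure D3:**
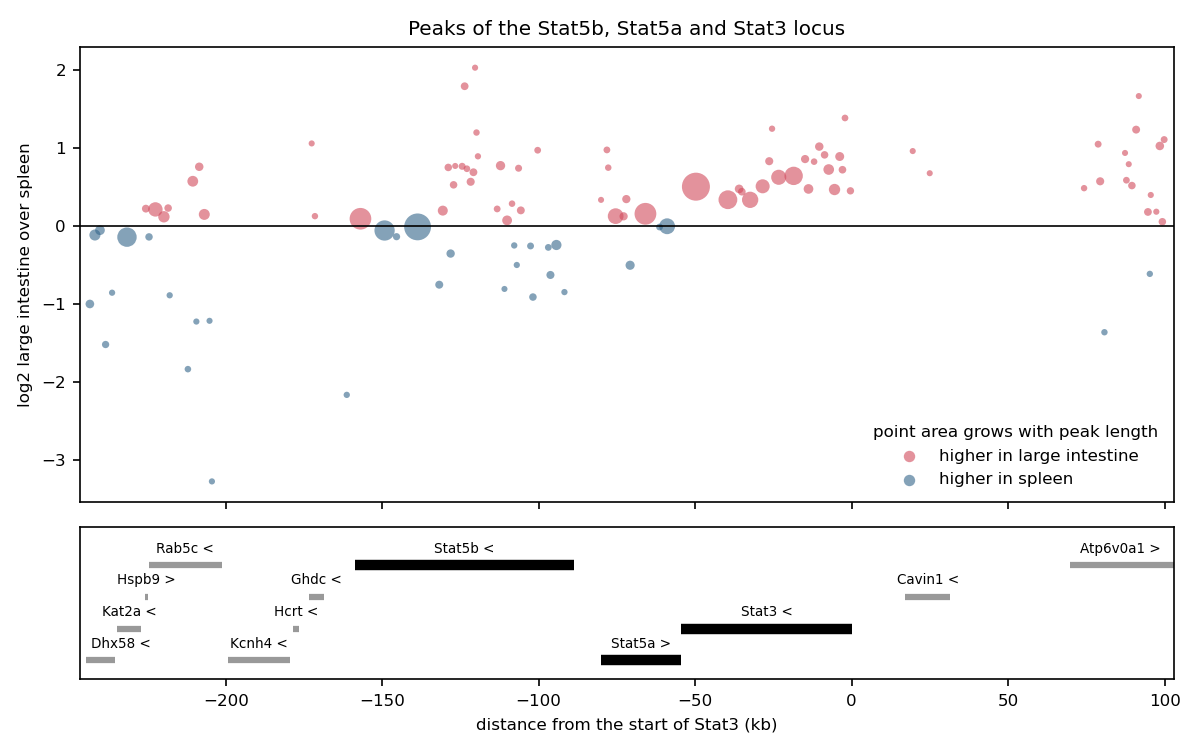
Log2 ratio of each peak, large intestine over spleen, against distance from the start of Stat3 in kb, with gene bodies drawn to scale in the lower panel (arrowheads give the strand, STAT genes are black). Point area grows with peak length, red is higher in large intestine and blue higher in spleen. Peaks of Stat3 all lie above 0, those of Stat5b lie on both sides of it, and the longest peaks of Stat5a and Stat5b lie at 0.15 and -0.015.

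Stat5a and Stat5b are near copies over part of their length, so reads from one can be placed on the other. Exact runs of at least 75 bases, the read length, were searched on both strands, and 10 such runs were shared by the 2 genes. All of them lay in peaks of both genes and added up to 1454 bases, or 7.15% of the peak bases of Stat5a and 3.38% of those of Stat5b. Of these bases 808 were coding, and 8 of the 10 runs held coding bases. In Stat5a 7 runs lay in its strongest peak (29.6 RPKM in spleen against 32.9 RPKM in large intestine), and in Stat5b 9 lay in its strongest peak (27.9 and 27.6 RPKM). The longest runs are printed from the GRCm38 reference on the plus strand with coding bases in capitals, because a read from inside them has 2 exact placements. Their Stat5a copies are at chr11:100874023-100874251, chr11:100874308-100874558 and chr11:100874639-100874892, and their Stat5b copies, on the minus strand, at chr11:100798473-100798701, chr11:100798166-100798416 and chr11:100797832-100798085.
Run of 229 bases: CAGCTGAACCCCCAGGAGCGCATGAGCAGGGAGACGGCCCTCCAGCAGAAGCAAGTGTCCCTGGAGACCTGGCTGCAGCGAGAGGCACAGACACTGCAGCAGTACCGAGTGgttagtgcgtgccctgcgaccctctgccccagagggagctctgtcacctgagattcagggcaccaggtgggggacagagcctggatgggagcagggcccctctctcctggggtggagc
Run of 251 bases: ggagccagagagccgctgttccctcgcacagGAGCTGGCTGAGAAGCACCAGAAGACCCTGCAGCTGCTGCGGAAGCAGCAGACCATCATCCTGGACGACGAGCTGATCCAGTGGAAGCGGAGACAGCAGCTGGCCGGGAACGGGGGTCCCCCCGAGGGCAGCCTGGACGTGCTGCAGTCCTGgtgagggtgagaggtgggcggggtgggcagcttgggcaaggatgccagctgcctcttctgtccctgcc
Run of 254 bases: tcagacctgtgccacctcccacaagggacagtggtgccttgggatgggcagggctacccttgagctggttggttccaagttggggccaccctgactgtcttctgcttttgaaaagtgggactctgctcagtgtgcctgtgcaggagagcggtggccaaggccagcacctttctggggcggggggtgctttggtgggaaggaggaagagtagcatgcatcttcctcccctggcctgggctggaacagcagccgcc
The first 2 of these hold an exon and intron sequence beside it, and the last is intronic throughout. No other pair among the 6 genes shared more than 261 bases in such runs. How the authors treated reads with several placements is not given in the sources used here, and its part in the near-equal ratios of Stat5a and Stat5b was not tested.

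Promoters carried little of the mark. Of 9 RefSeq promoters of the 6 genes (GRCm38.p6, 250 bases before to 50 after the start), 1 overlapped a peak, against 4.50% of all 32851 promoters. It was a Stat5a promoter, under a peak of 200 bp with 9.38 RPKM in spleen against 11.9 RPKM in large intestine. The nearest peak was 86 bp away at Stat3, but 2266 bp at Stat5b, 2915 bp at Stat2, 3308 bp at Stat6 and 3966 bp at Stat4 from the nearer start. The motif TTCNNNGAA was found in 0 of the 9 STAT promoters, and in 8.30% of all promoters.

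The other genes of the pathway were taken from lists of kinases, receptors, inhibitors and targets, 57 genes in all, of which 4 had no peak and 51 passed the filter. Their median log2 ratio was 0.048, with 14 intervals above 0 and 11 below among the 51, where all genes had 18% above and 15.2% below. The median of the 6 STAT genes was 0.17. By the rule for naming, the 10 largest ratios among genes of these and the marker lists that passed the filter are given with values. Other genes named here were chosen after their values were seen. The target Ifng, which did not pass the filter, had 1 peak and a ratio of -2.49 (-4.68 to -0.31).

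Of the JAKs, 3 of 4 had an interval above 0 (Jak2 0.31, Jak3 0.40, Tyk2 0.37), and Jak1, which pairs with Jak3 at the IL-2 receptor, had one below, at -0.35 (-0.54 to -0.17), against 18% and 15.2% of all genes. The 5 chains of receptors that signal through STAT5, such as Il2ra and Il7r, had a median of -0.078 and 0 intervals off 0 in either direction. Chains of receptors that signal through STAT3 numbered 7, with 6 tested, 2 above and 2 below. Il6ra, the IL-6 binding chain, had 397.5 RPKM in spleen against 165.3 RPKM in large intestine, giving a ratio of -1.26 (-1.48 to -1.05), while Stat3 itself had 0.62. For STAT4, Il12rb1 had 0.63 (0.32 to 0.93), and Il12rb2 had no peak. For STAT6, Il4ra had 0.49 (0.29 to 0.69) with 7 of 7 peaks higher in large intestine, while Il13ra1 had no peak and Stat6 itself had -0.064. The interferon receptor chains and Irf9, upstream and partner of Stat2, had a median of -0.26, with 0 intervals above 0 and 1 below (Ifnar2, -0.37).

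Among 16 feedback inhibitors, 3 intervals lay above 0 and 2 below, shares near the 18% and 15.2% of all genes, with a median of 0.11. Cish, which STAT5 induces, had 34.2 RPKM in spleen against 53.2 RPKM in large intestine and a ratio of 0.63 (0.41 to 0.85). Socs2, another STAT5-induced inhibitor, had 0.57 (0.20 to 0.94), and Pias4 had 0.23 (0.026 to 0.44). The 2 below 0 were Pias2 at -0.47 (-0.92 to -0.016) and the phosphatase Ptpn6 at -0.42 (-0.66 to -0.19). Among 18 genes listed as STAT targets, 15 were tested, with 4 intervals above 0 and 5 below, against 18% and 15.2% of all genes, and a median of -0.050. Maf, a transcription factor downstream of STAT3, had 89.1 RPKM in spleen against 210.7 RPKM in large intestine, giving a ratio of 1.24 (1.00 to 1.47). Of the 15 targets tested, 1 was past 2-fold towards large intestine and 1 towards spleen, against 3.43% and 2.04% of all genes.

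Bcl2, a survival gene that STAT5 induces, had 405.9 RPKM in spleen against 132.4 RPKM in large intestine, giving a ratio of -1.61 (-1.89 to -1.33). Ccnd3, a cyclin, had 938.5 and 476.2 RPKM and -0.98 (-1.10 to -0.86), and Myc had 39.4 and 23.0 RPKM and -0.76 (-1.17 to -0.35). The interferon-induced genes Mx1 and Usp18, targets of the Stat2 complex, had -0.91 (-1.27 to -0.55) and -0.89 (-1.12 to -0.65). Of the markers, Cd8b1 had -1.16 (-2.28 to -0.041), Cd79a -0.70 (-1.32 to -0.075) and Epcam 0.84 (0.23 to 1.46). Cd79b and Pax5, the other B cell markers counted here with a peak, went the other way with intervals that included 0. Cd79b had 0.54 (-0.059 to 1.14), and Pax5, which did not pass the filter, had 1.15 (-0.75 to 3.05).

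**Figure D4:**
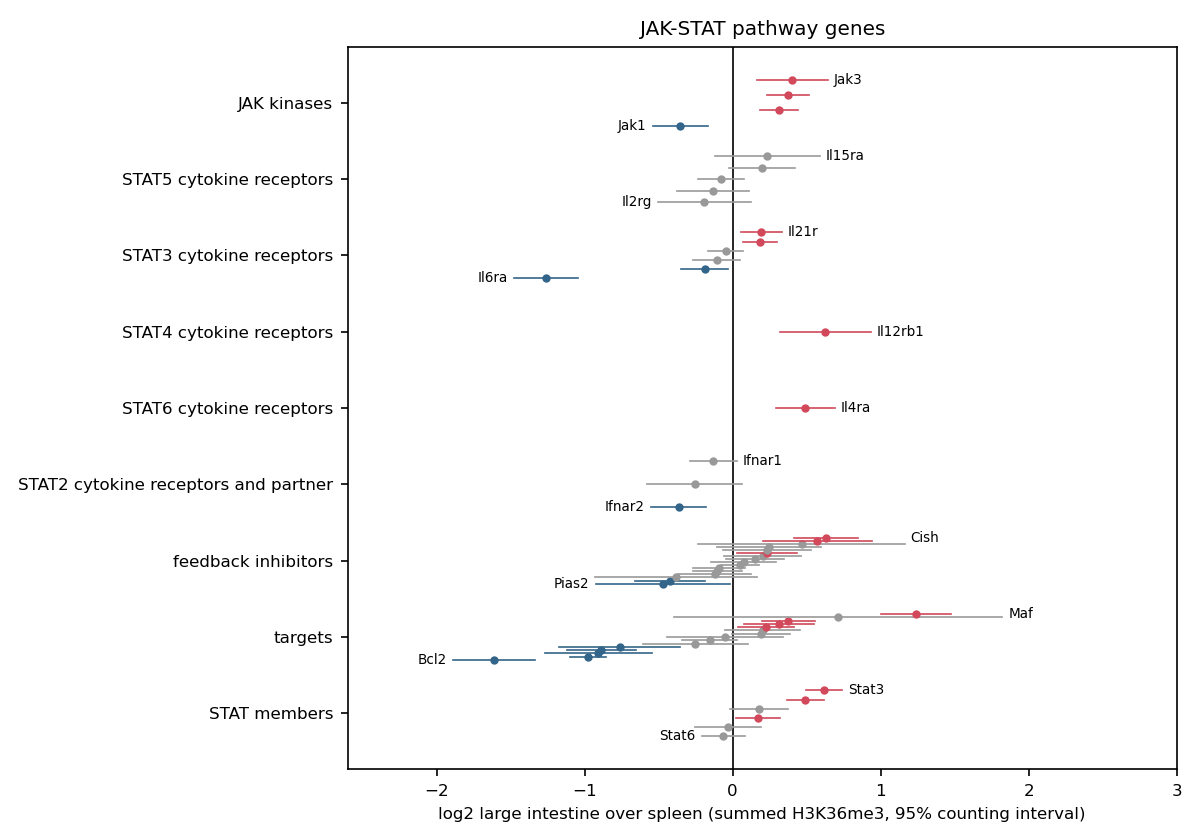
Log2 ratio of summed H3K36me3, large intestine over spleen, with its approximate 95% counting interval, for the tested genes of each JAK-STAT list and the 6 STAT genes. Red intervals lie above 0, blue ones below 0 and grey ones include 0, and the highest and lowest gene of each list is named. The receptor chains of STAT5 include 0 throughout, and the targets spread from -1.61 (Bcl2) to 1.24 (Maf).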

How the data were processed

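H3K36me3 ChIP-seq reads, single-end and 75 nt long, were aligned by the authors to mm10, and MACS2 peaks of each tissue against input were merged with bedtools. The submitters' processing notes also name FastQC and Bowtie2, without versions. The deposited values are mean RPKM per merged peak, made by the authors from coverage tracks, although the table is titled as raw counts. Any extension of the reads is not given in the sources used here. No count test was run.

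Peaks were assigned by midpoint to GENCODE M21 gene bodies, and on 0 of 21 chromosomes did a peak reach beyond the GRCm38 sequence. Large intestine values were scaled to the spleen total (log2 ratio of totals 0.046). Peak values were summed per gene, with a pseudocount of 0.5 RPKM and a filter of 20 RPKM over both libraries. On this log2(value + pseudocount) scale, fold changes of low genes are understated. Depth came from the value of 1 read in 1 bin of 20 bp, 1.69 RPKM in spleen against 1.31 RPKM in large intestine. Over short aligned peaks, 100% of 380 and 381 values were whole multiples of it, within 0.03 of a step. Counting intervals took each read as covering 200 bp and treated reads as independent molecules. On this basis each gene rested on between 1030 (Stat2, spleen) and 4684 (Stat3, large intestine) reads. No p-value was computed. The members and the lists were chosen with earlier results of these data known. The rule for named genes of the lists took those that passed the filter, with the interval off 0 and a log2 ratio of at least 0.5 in size. It took 10 at most, the largest first. Other list genes in the text were chosen after their values were seen. A further 2 genes of the lists are not reported here and were left out of their counts and medians. Python 3.11.15, numpy 2.4.6, pandas 2.3.3 and matplotlib 3.10.9 were used.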

Additional observations from a re-analysis of the deposited data

How the results depend on the processing

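For the 6 STAT genes and their counts, 113 values were recomputed. Of these, 102 stayed within the limit set for their kind, while 9 moved further and 2 reversed. The limit was the main counting interval for ratios and a difference of at most 1.5 times for counts of genes. For the share of peaks higher in large intestine, it was a binomial interval around the main share. That interval treats peaks as independent, which peaks of 1 gene are not. Reversed means a change of sign in a gene whose main interval lay off 0. Of the genes whose main interval included 0, Stat2 changed sign to 0.013 with the deposited values not scaled further, and Stat5a to the value given below. The ranges were 0.46 to 0.66 for Stat3, 0.12 to 0.63 for Stat4, -0.025 to 0.22 for Stat5a, -0.029 to 0.22 for Stat5b, -0.098 to 0.013 for Stat2 and -0.18 to -0.019 for Stat6. Stat4 was 0.36 with peaks weighted by length, 0.28 with peaks of 1 kb or more, 0.63 after GC correction and 0.35 with peaks of at least 50 approximate reads. The strongest peak alone gave 0.47 for Stat3, 0.12 for Stat4 and, reversed, -0.015 for Stat5b. GC correction gave 1 gene, Stat6, with the interval below 0. The number of genes with the interval above 0 was 2 in place of 3 with the strongest peak, with peaks of 1 kb or more and with GC correction. With the strongest peak these were Stat3 and Stat5a (0.018 to 0.29), and in the other settings Stat3 and Stat4. With the deposited values not scaled further the number was 4, as the interval of Stat5a (0.028 to 0.42) then also lay above 0. Length weighting and GC correction together gave 0.46 for Stat3, -0.025 for Stat5a and, reversed, -0.029 for Stat5b. This last setting, the limit of 50 reads and the removal of the peak across the Stat5a and Stat3 ends were chosen after the data had been seen. What caused these shifts was not tested. Over all genes, 595 were past 2-fold, against 391 with a pseudocount of 5, 1081 with no filter, 109 with at least 200 RPKM (4323 genes tested) and 160 with peaks of 1 kb or more (7846 tested). None of the 6 STAT genes was past 2-fold under any of the settings tried. With reads taken to cover 75 bp, the interval of Stat5a lay above 0 (0.058 to 0.30). No paired analysis was possible because each tissue had 1 library.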
